A study of Mus musculus with 4 samples.

Results

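Transcripts of 10 genes of the canonical Wnt pathway were compared between mouse embryonic stem cells (mESCs) labelled wild-type (WT) and *Spen* KO. The genes were chosen by name as pathway components and known targets: *Ctnnb1*, *Axin2*, *Tcf7l1*, *Tcf7*, *Lef1*, *Sp5*, *Nkd1*, *Lgr5*, *Cdx1* and *Dkk1*. All 10 were found among the 37310 genes of the count table. Total RNA was sequenced after depletion of ribosomal RNA, with 2 libraries of HATX WT mESCs and 2 libraries of SpenKO mESCs of Clone 2. HATX cells are a haploid mESC line with a mixed genomic background and an *Xist* transgene on the X chromosome that doxycycline turns on, which the WT cells carry too. The cells labelled KO were made by deleting the *Spen* gene, described by the study as a loss of most of it or of the whole, and no treatment was given to either group. All cells grew on gelatin in medium with serum and the cytokine LIF. Each group was 1 line and the KO-labelled group was 1 clone, so the effect of the genotype and of the clone cannot be told apart. Nothing in the sources used here says that the 2 libraries of a group came from separate cultures, so the p-values measure only the spread between these libraries, which may be technical.

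Wnt ligands bind Frizzled receptors together with the co-receptors Lrp5 and Lrp6, and this stops the destruction complex from marking beta-catenin for degradation. Beta-catenin then enters the nucleus and joins the DNA-binding proteins of the TCF/LEF family, which then turn target genes on or, in the case of Tcf7l1, stop repressing them. In mESCs the pathway is known for supporting self-renewal, and at gastrulation it drives the genes of the primitive streak and mesoderm.

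The libraries held between 36667685 and 61908422 assigned reads, and 11918 genes had no read in any of them. On the log scale the libraries of a group correlated at 0.995 in WT and 0.996 in KO-labelled cells, against 0.964 to 0.966 between groups. *Spen* itself, the targeted gene (chromosome 4, 141023805 to 141094512, minus strand, mm9), had 3716 and 3047 normalised read counts in WT and 7797 and 6242 in the libraries labelled KO. Its count was thus raised rather than lost under the KO label, with a log2 fold change of 1.05 ± 0.21 (SE) and a DESeq2 adjusted p of 7.7e-06. The count covers the whole gene and not the deleted part alone, so it does not check the label, and the libraries are called KO-labelled here. The markers of mESC identity, 10 genes that include *Pou5f1* and *Nanog*, summed to 2997 to 3063 FPKM in WT and 3429 to 3477 in KO-labelled libraries, and none was at 0. Median log2 fold changes by chromosome ran from -0.35 on chromosome 10 to 0.38 on chromosome 19, so the fit was repeated with these medians removed. Its values are given below for some genes of the pathway, and not for neighbouring genes or markers outside it. All folds are KO-labelled over WT, and normalised read counts are counts divided by DESeq2 size factors. A gene is called changed at 2-fold or more with adjusted p below 0.001, the thresholds of the study. A fit with 1 library left out has 1 library in that group, so the other group alone gives the spread. The adjusted p of such a fit cannot say whether a result rests on the library left out.

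Of the 10 genes, *Sp5* was called, and it was lower in KO-labelled cells. It encodes a zinc-finger transcription factor that beta-catenin switches on directly and that acts back on other Wnt targets. By both DESeq2 and edgeR 0 were called higher, and 1 (*Ctnnb1*) was higher at an unadjusted p under 0.05. *Axin2*, the feedback scaffold that is the usual readout of the pathway, was lower by less than 2-fold with an adjusted p under 0.05. The other members gave no difference past that threshold, beta-catenin and the TCF/LEF genes among them. Of the 17710 genes with an adjusted p, 4.51% were called in either direction, 1.36% higher and 3.15% lower, and with 9 of the 10 members tested 1 was called. At an adjusted p under 0.05 without a fold minimum, 2 members were lower and 0 were higher, where 32.3% of all genes passed (16.4% higher and 15.8% lower). Counts this small cannot be set apart from those shares, and nothing about the group is read from them. Their median log2 fold change was -0.05, against 0.005 over all genes with an adjusted p. The member median was -0.42 with chromosome medians removed and -0.19 without WT replicate 1. The libraries of both groups did not overlap in 5 of the 10 genes, where 70.2% of all tested genes were separated in this way.

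**Figure D1:**
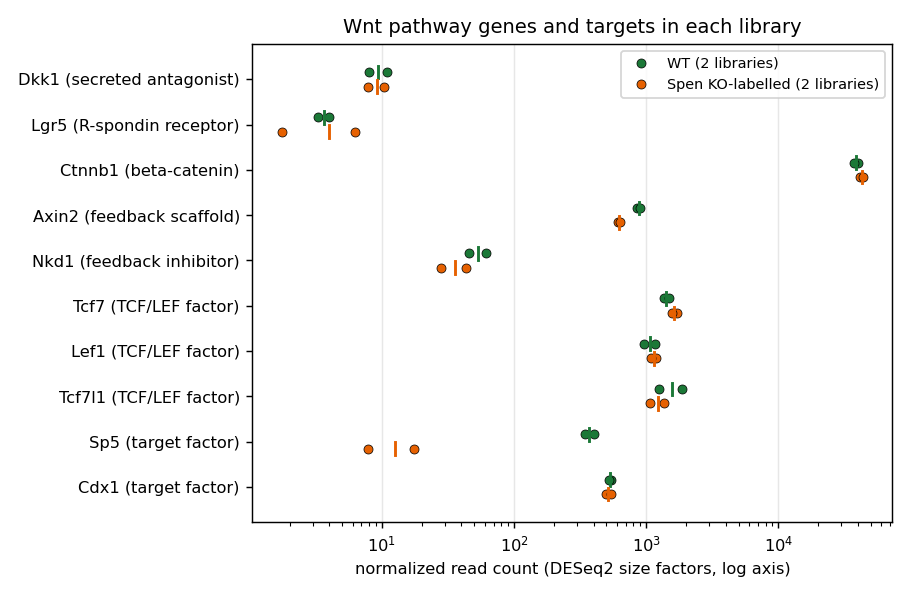
Normalised read counts of the 10 Wnt pathway genes and targets in each library, on a log axis. Points are libraries (green WT, orange *Spen* KO-labelled, 2 each) and vertical ticks are group means. *Sp5* sits at 343 and 400 in WT and at 17.4 and 7.83 in KO-labelled libraries, while the points of *Ctnnb1* and *Cdx1* lie close together.

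The upstream sequences of *Sp5* and *Axin2* are shown because these are the members that passed the test at an adjusted p under 0.05, and both are textbook direct targets of TCF/LEF factors. Each run is the 250 bases before the annotated start in the RefSeq table of GRCm38.p6, read 5′ to 3′ on the plus strand. Both genes lie on the plus strand, and the same sequences stand in mm9, the build of the counts, at chr2:70312730-70312979 for *Sp5* and chr11:108781413-108781662 for *Axin2*. Capitals mark matches to any of 4 TCF/LEF heptamers, searched on both strands. They are CTTTGAT (found in 3.73% of all windows described below), CTTTGTT (in 5.85%), CTTTGAA (in 5.14%) and CTTTGTA (in 3.63%).
Sp5: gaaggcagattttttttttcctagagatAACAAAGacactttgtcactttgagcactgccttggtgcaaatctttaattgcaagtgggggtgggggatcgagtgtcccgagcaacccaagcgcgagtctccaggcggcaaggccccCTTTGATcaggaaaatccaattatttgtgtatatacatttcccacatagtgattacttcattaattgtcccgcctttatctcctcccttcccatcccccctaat
Axin2: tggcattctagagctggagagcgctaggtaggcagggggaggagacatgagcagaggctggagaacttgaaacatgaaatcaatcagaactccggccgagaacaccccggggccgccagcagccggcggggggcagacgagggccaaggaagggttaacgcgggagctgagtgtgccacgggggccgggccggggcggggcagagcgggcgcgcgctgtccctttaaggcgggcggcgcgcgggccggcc
The *Sp5* run held 2 matches, CTTTGTT on the minus strand from 222 bases and CTTTGAT on the plus strand from 104 bases before the start. The *Axin2* run held 0. GC content was 46.0% for *Sp5* and 69.2% for *Axin2*. Of 32851 windows of 300 bases around the starts of 27025 genes (250 before and 50 after), 16.9% held at least 1 match and 1.94% held at least 2. The table held 8 of the 10 genes, in 13 windows. Besides *Sp5*, a window of *Dkk1* held 2 matches, CTTTGAA and CTTTGTT at 117 and 98 bases before the start, and 1 of the 4 windows of *Lef1* held CTTTGTA at 147 bases. A match is a string of letters and not a shown binding site, and a window without one says nothing of the factor. Of the 3 genes with a match, *Sp5* was called lower, and *Dkk1* and *Lef1* did not pass the test.

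*Sp5* (ENSMUSG00000075304.2, chromosome 2, 70312980 to 70315786) had 259 and 367 reads in WT against 20 and 10 in KO-labelled libraries. After normalisation these were 343 and 400 against 17.4 and 7.83. Both KO-labelled libraries lay far below both WT libraries, with low but not absent counts. The mean fell from 372 ± 39.8 to 12.6 ± 6.78 (SD, n = 2 each), which is 29.4-fold lower. The log2 fold change of -4.90 ± 0.37 (SE) had a 95% interval of -5.62 to -4.18 and a DESeq2 adjusted p of 1.01e-38. When 1 library was left out at a time the log2 fold change lay between -5.56 and -4.41. With all libraries edgeR gave an adjusted p of 4.24e-08. The median of chromosome 2 was 0.11, and with it removed the log2 fold change of *Sp5* was -5.01. Fewer cells that express a gene and less RNA per cell cannot be told apart in bulk RNA, here or for any gene below.

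Genes next to *Sp5* gave mixed values. *Gad1*, which encodes an enzyme of GABA synthesis and starts 75.3 kb after *Sp5*, had 253 and 301 normalised read counts in WT and 129 and 121 in KO-labelled libraries, a log2 fold change of -1.15 ± 0.25 (adjusted p of 3.34e-05). The next genes out with an adjusted p, *Gorasp2* at 183.8 kb after and *Ubr3* at 450.9 kb before, had log2 fold changes of -0.004 and -0.0001 with adjusted p of 0.981 and 0.999. The pseudogene *Rpl9-ps7*, 15.4 kb before *Sp5*, stood at 0.81 with an adjusted p of 0.353. These neighbours were chosen for their position among genes with an adjusted p, and other annotated genes may lie between them.

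Lists of markers of other cell types were measured beside *Sp5*. The summed level of 8 mesendoderm markers was 9.14 and 9.57 FPKM in WT and 3.79 and 3.90 in KO-labelled libraries. Much of this fall was *T*, at 3.36 and 3.85 FPKM in WT and 0.253 and 0.286 in KO-labelled libraries. Of 6 tested, 3 passed an adjusted p of 0.05, all lower, with 2 of them (*T* and *Evx1*) called. *Mixl1*, which did not pass, had more reads before normalisation in KO-labelled libraries (56 and 62) than in WT (27 and 28). The sum of 8 primitive endoderm markers was 10.2 and 10.3 against 3.76 and 3.65 FPKM, where 3 of 6 tested passed, all lower, with 2 called (*Sox7* and *Lama1*). The 10 feeder fibroblast markers summed to 3.39 and 3.82 FPKM in WT and 5.54 and 6.14 in KO-labelled libraries, and of 8 tested 1 was higher (*Thy1*, which was called) and 2 were lower at an adjusted p under 0.05 (*Twist1* and *Acta2*), with a median log2 fold change of -0.29. The 7 neuroectoderm markers summed to 94.9 and 97.1 against 90.7 and 92.7 FPKM, where 1 of 5 tested passed, *Pax6*, which was called lower. Of these lists, 2 mesendoderm, 1 primitive endoderm, 2 feeder and 1 neuroectoderm marker were at 0 in some library, and none was at 0 in all. These counts stand against 32.3% of all tested genes at an adjusted p under 0.05 (16.4% higher and 15.8% lower) and 4.51% called (1.36% higher and 3.15% lower). The part of these cells in the *Sp5* result was not tested.

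*Axin2* (ENSMUSG00000000142.9, chromosome 11, 108781663 to 108812097, plus strand) encodes a scaffold of the destruction complex that the pathway induces against itself. Its normalised read counts were 851 and 900 in WT and 616 and 635 in KO-labelled libraries. The groups did not overlap, and the libraries within each were close. The means were 875 ± 34.2 and 626 ± 13.4 (SD, n = 2 each), 1.40-fold lower in KO-labelled cells. This is a log2 fold change of -0.48 ± 0.14 (SE), 95% interval -0.75 to -0.22, and a DESeq2 adjusted p of 0.00191. The adjusted p did not stay under 0.05 in smaller sets of libraries: it was 0.117 without WT replicate 2, 0.0894 without KO-labelled replicate 1, 0.0564 without KO-labelled replicate 2 and 0.044 without WT replicate 1, and the log2 fold change lay between -0.52 and -0.44. With the median of chromosome 11 (0.16) removed, it was -0.65. An opposite-strand transcript, *Gm11670*, shares 3.8% of the exonic bases of *Axin2*. Of the 4 nearest genes with an adjusted p around *Axin2*, *Ccdc46*, 59.7 kb before it, was lower (183 and 168 against 89.7 and 113, -0.79 ± 0.30, adjusted p of 0.0269). *Prkca* (-0.19, adjusted p of 0.732), *Rgs9* (-0.18, 0.514) and *Gm11696* (0.33, 0.629) did not pass.

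*Nkd1*, whose product binds Dishevelled and is another feedback inhibitor, was scarce. It had 61.0 and 45.7 normalised read counts in WT and 27.9 and 43.0 in KO-labelled libraries. The groups did not overlap, but the lower WT library and the higher KO-labelled library were close. The log2 fold change, -0.58 ± 0.52 (SE), had an adjusted p of 0.447, and the 95% interval of the fold, 0.33 to 1.35, spans both a fall and a rise. The value depended on single libraries: the log2 fold change was -0.36 and -0.78 without WT replicates 1 and 2, and -0.30 and -0.93 without KO-labelled replicates 1 and 2, with adjusted p from 0.444 to 0.828.

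*Ctnnb1* encodes beta-catenin, the effector of the pathway and also a partner of cadherins at cell junctions. It had 39933 and 37250 normalised read counts in WT and 41510 and 44016 in KO-labelled libraries. Both KO-labelled libraries were above both WT libraries, by a small margin. The log2 fold change was 0.15 ± 0.07 (SE), adjusted p of 0.0818, and the 95% interval of the fold was 1.01 to 1.22. With upper-quartile size factors the log2 fold change was 0.18 and the adjusted p 0.0302. With the median of chromosome 9 (0.13) removed, the log2 fold change was 0.01. An opposite-strand gene, *Ulk4*, shares 4.71% of the exonic bases of *Ctnnb1*.

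Of the TCF/LEF family, *Tcf7*, *Lef1* and *Tcf7l1* are among the 10 genes. A further family gene, *Tcf7l2*, belongs to the nuclear effectors below and had a log2 fold change of 0.07 (adjusted p of 0.836). It is named here to complete the family, after its values were seen. *Tcf7*, which encodes a factor that mostly activates with beta-catenin, had 1355 and 1483 normalised read counts in WT and 1703 and 1566 in KO-labelled libraries. The groups did not overlap, and the fold was 1.15 with a 95% interval of 0.99 to 1.34 (log2 fold change 0.20 ± 0.11, adjusted p of 0.156). With the median of chromosome 11 (0.16) removed, the log2 fold change of *Tcf7* was 0.04, with a DESeq2 adjusted p of 0.86. *Lef1*, the factor for which the family is named, had 969 and 1157 against 1192 and 1091. These ranges overlapped, and the interval of the fold was 0.90 to 1.28 (adjusted p of 0.621). The log2 fold change of *Lef1* was -0.015 and 0.24 without WT replicates 1 and 2, and 0.008 with its chromosome median removed.

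*Tcf7l1*, an older name of which is Tcf3 and which encodes the main repressor of the family in these cells, had 1252 and 1875 normalised read counts in WT and 1373 and 1070 in KO-labelled libraries. The groups overlapped because the WT libraries were far apart. The log2 fold change was -0.36 ± 0.34 (SE), adjusted p of 0.478, and the interval of the fold ran from 0.49 to 1.23. Without WT replicate 1 it was -0.61 with an adjusted p of 0.00481, and without WT replicate 2 it was -0.03 with an adjusted p of 0.944, so the value for *Tcf7l1* depended on which WT library was used. It was -0.54 (adjusted p of 0.475) without KO-labelled replicate 1 and -0.18 (0.848) without KO-labelled replicate 2. An opposite-strand gene, *Gm15401*, shares 5.39% of its exonic bases.

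*Cdx1*, a homeobox gene of the posterior body axis and a known Wnt target, had 544 and 522 normalised read counts in WT and 495 and 540 in KO-labelled libraries. The groups overlapped. The fold was 0.97 and its 95% interval 0.78 to 1.21, with an adjusted p of 0.888, so that a change of the size seen in *Sp5* lies outside the interval. *Dkk1*, a secreted antagonist that blocks Lrp co-receptors and is itself induced by the pathway, had 7.95 and 10.9 in WT and 10.4 and 7.83 in KO-labelled libraries. *Lgr5*, a receptor for R-spondins and a stem cell marker in gut, had 3.98 and 3.27 against 1.74 and 6.26. Both genes were close to 0, with 2 to 12 reads in a library. *Lgr5* received no adjusted p, and the interval of the fold for *Dkk1*, 0.22 to 4.19, leaves a change of several fold in either direction possible at this depth.

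**Figure D2:**
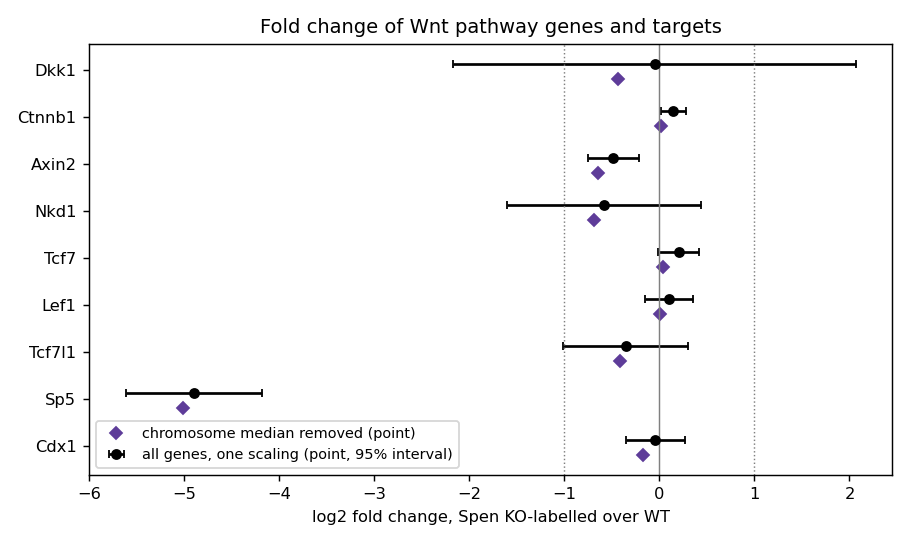
Log2 fold change of 9 Wnt pathway genes and targets, *Spen* KO-labelled over WT. Black points with bars are the DESeq2 estimate and its 95% interval, purple diamonds the value after removal of the median of the gene's chromosome, and dotted lines mark 2-fold. *Sp5* lies at -4.90, *Axin2* at -0.48, and the bars of *Dkk1* and *Nkd1* are the widest. *Lgr5* had no adjusted p and is not drawn.

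Levels per kilobase of exon, in FPKM, ordered the genes within a group. In WT *Ctnnb1* led with 153 to 161 FPKM, followed by *Tcf7* (9.99 to 11.1), *Tcf7l1* (7.75 to 11.8) and *Cdx1* (6.24 to 6.39). *Sp5* came next with 3.36 to 3.99, then *Axin2* (3.18 to 3.42), *Lef1* (2.30 to 2.80), *Nkd1* (0.215 to 0.281), *Dkk1* (0.0674 to 0.0940) and *Lgr5* (0.00667 to 0.00797). Neighbours whose libraries overlapped were *Tcf7* with *Tcf7l1* and *Sp5* with *Axin2*. In KO-labelled libraries the order of the other genes differed in that *Lef1* (2.60 to 2.89) stood above *Axin2* (2.35 to 2.38). *Sp5* was there below *Nkd1* in the order, at 0.0769 to 0.174 FPKM, overlapping *Nkd1* (0.131 to 0.199) above and *Dkk1* (0.0666 to 0.0904) below. None of the 10 genes has a near-identical copy elsewhere in mm9 that could draw its reads, by a match of 75-base exonic windows with at most 2 differences.

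The rest of the pathway was described through 124 further genes in lists by role, of which 111 had an adjusted p. Of these, 2 were called higher and 9 lower, and 27 were higher and 22 lower at an adjusted p under 0.05, with a median log2 fold change of 0.05. Over all tested genes 1.36% were called higher and 3.15% lower, and 16.4% were higher and 15.8% lower at the looser threshold. At an unadjusted p under 0.05, 3586 genes of the whole count table were higher and 3519 lower. These values are the background for every list below. The lists were drawn up with earlier results of these data known. Called genes were found among ligands, secretion factors, receptors and targets. In the destruction complex 0 of 20 genes were called by DESeq2 or edgeR, and 6 were higher and 4 lower at an unadjusted p under 0.05. Among nuclear effectors 0 of 20 were called by either tool, and 7 were higher and 3 lower at an unadjusted p under 0.05.

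**Figure D3:**
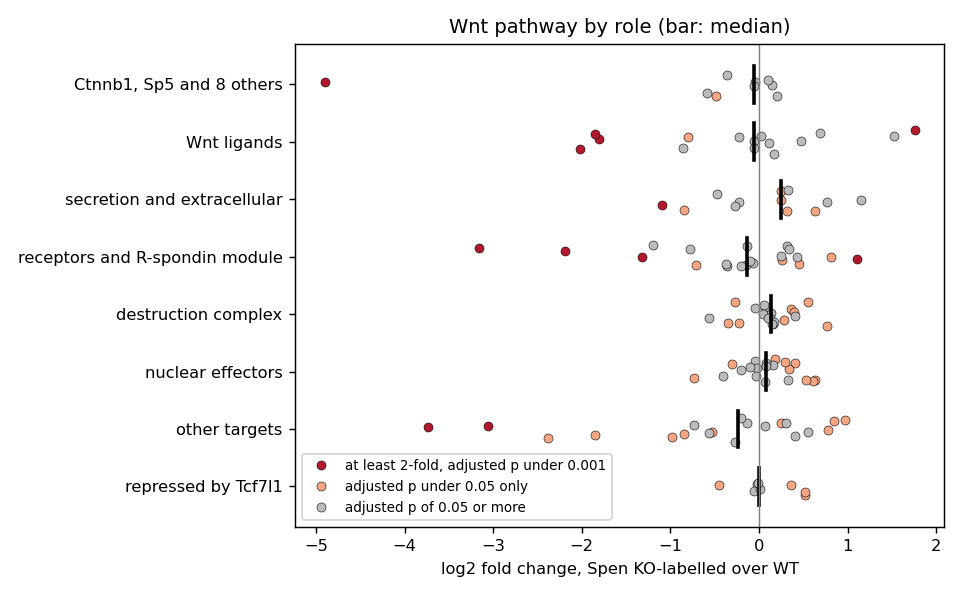
Log2 fold change of each Wnt pathway gene with an adjusted p, *Spen* KO-labelled over WT, in rows by role. Dark red points are called genes, light orange points passed an adjusted p under 0.05 only, grey points did not, and black bars are medians. Medians lie between -0.24 (other targets) and 0.25 (secretion and extracellular), and *Sp5* is the point at -4.90 in the top row.

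Wnt ligands are the signals of the pathway, and 15 of the 19 ligand genes had an adjusted p. Of these, 1 was called higher and 3 lower, the median was -0.06, and 10 did not pass an adjusted p of 0.05. *Wnt8a*, a ligand of the early streak, had 347 and 348 normalised read counts in WT and 76.6 and 116 in KO-labelled libraries. This is a log2 fold change of -1.85 ± 0.26 (adjusted p of 2.08e-11), which lay between -2.18 and -1.58 with 1 library left out. *Wnt7b* went from 171 and 185 to 47.0 and 54.8 (-1.81 ± 0.33, adjusted p of 4.56e-07). *Wnt5a*, the ligand best known for beta-catenin-independent signalling, went from 103 and 154 to 33.1 and 30.5 (-2.02 ± 0.41, adjusted p of 7.1e-06). For these 3 genes both KO-labelled libraries lay under both WT libraries. *Wnt2b* rose from 39.8 and 27.2 to 102 and 124 (1.76 ± 0.43, adjusted p of 0.000251).

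With 1 library left out the log2 fold change of *Wnt7b* lay between -1.92 and -1.69. That of *Wnt5a* lay between -2.27 and -1.7, and that of *Wnt2b* between 1.51 and 2.055. Not every such fit kept these calls, but its spread comes from 1 group alone. *Wnt5b* (175 and 154 against 85.3 and 103, -0.80 ± 0.30, adjusted p of 0.0289) passed 0.05 with all 4 libraries but not with any 1 of them left out (0.122 to 0.307). The ligands with a mean of at least 50 normalised read counts that did not pass were *Wnt3* (-0.86, adjusted p of 0.166), *Wnt3a* (0.12, 0.837), *Wnt4* (-0.22, 0.775) and *Wnt6* (-0.06, 0.949).

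Among 12 tested genes for secretion and extracellular control, 4 were higher and 2 lower at an adjusted p under 0.05, and 1 was called. *Wls*, the carrier that brings Wnt proteins to the cell surface, was called lower, with 504 and 464 normalised read counts in WT and 203 and 251 in KO-labelled libraries (-1.09 ± 0.20, adjusted p of 4.34e-07). *Porcn*, the enzyme that attaches the lipid to Wnt proteins, was higher by less than 2-fold, from 6054 and 6091 to 7365 and 7725 (0.31 ± 0.07, adjusted p of 0.000128). With 1 library left out the log2 fold change of *Wls* lay between -1.25 and -0.94, on both sides of the 2-fold cut-off. *Apcdd1*, an inhibitor at the cell surface, fell from 495 and 477 to 277 and 262 (-0.85 ± 0.18, adjusted p of 2.61e-05). The soluble antagonists *Sfrp1* and *Sfrp2* had log2 fold changes of 0.25 and 0.64 with adjusted p of 0.00749 and 0.0402. Neither kept its adjusted p under 0.05 in the smaller sets, at 0.0302 to 0.225 for *Sfrp1*, where only the set without KO-labelled replicate 1 passed, and 0.133 to 0.356 for *Sfrp2*. With chromosome medians removed they stood at 0.14 and 0.55, with adjusted p of 0.175 and 0.0994. *Kremen1* (-0.27, adjusted p of 0.433), *Dkk3* (-0.47, 0.302) and *Kremen2* (0.76, 0.085) did not pass.

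Receptors and the R-spondin module gave 1 gene called higher and 3 lower among 21 tested, and 4 were higher and 4 lower at an adjusted p under 0.05. *Fzd7*, the Frizzled receptor known for its role in mESC self-renewal, had 989 and 1118 normalised read counts in WT and 2415 and 2118 in KO-labelled libraries (1.10 ± 0.11, adjusted p of 4.7e-20). It stood at 1.02 and 1.2 without WT replicates 1 and 2, and at 1.01 and 1.2 without KO-labelled replicates 1 and 2. With its chromosome median removed it was 1.001, so several values lay just above the 2-fold cut-off. *Fzd2* was lower, 379 and 392 against 157 and 152 (-1.32 ± 0.21, adjusted p of 9.28e-09). *Fzd8* was lower, 121 and 197 against 30.5 and 39.1 (-2.19 ± 0.39, adjusted p of 2.76e-07). *Ror1*, a receptor tyrosine kinase for Wnt ligands outside the beta-catenin branch, was lower, 71.6 and 150 against 15.7 and 9.39 (-3.16 ± 0.54, adjusted p of 5.6e-08). In each of these 4 genes the groups did not overlap. Of the other Frizzled genes *Fzd5* passed an adjusted p of 0.05 only (0.26, 0.0024). It stood at 0.21 to 0.33 with 1 library left out, and at 0.16 with its chromosome median removed (adjusted p of 0.0984). *Fzd1*, *Fzd3*, *Fzd4*, *Fzd6*, *Fzd9* and *Fzd10* did not pass. An annotated pseudogene of the same name and strand shares 74.77% of the exonic bases of *Fzd10*.

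With 1 library left out the log2 fold change of *Fzd2* hardly moved, at -1.34 to -1.29. That of *Fzd8* lay between -2.5 and -1.79 and that of *Ror1* between -3.59 and -2.51, the smallest falls without WT replicate 2. Not every such fit kept these calls, but its spread comes from 1 group alone. *Lgr4*, a relative of *Lgr5* that also binds R-spondins and was far better measured, was higher by less than 2-fold (2107 and 2161 against 3093 and 2771, 0.46 ± 0.10, adjusted p of 1.48e-05). *Lrp5* had 799 and 850 in WT and 1730 and 1175 in KO-labelled libraries (0.81 ± 0.16, adjusted p of 4.03e-06). Its log2 fold change was 0.78 and 0.87 without WT replicates 1 and 2, and 0.52 and 1.07 without KO-labelled replicates 1 and 2. With the median of chromosome 19 removed it was 0.43. The fourth lower gene, named after its values were seen, was *Ror2*, a relative of *Ror1* (842 and 894 against 508 and 553, -0.71 ± 0.14, adjusted p of 5.71e-06). The other co-receptor gene, *Lrp6*, stood at -0.07 (adjusted p of 0.596), *Ryk* at -0.10 (0.393) and *Znrf3* at -0.21 (0.153).

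**Figure D4:**
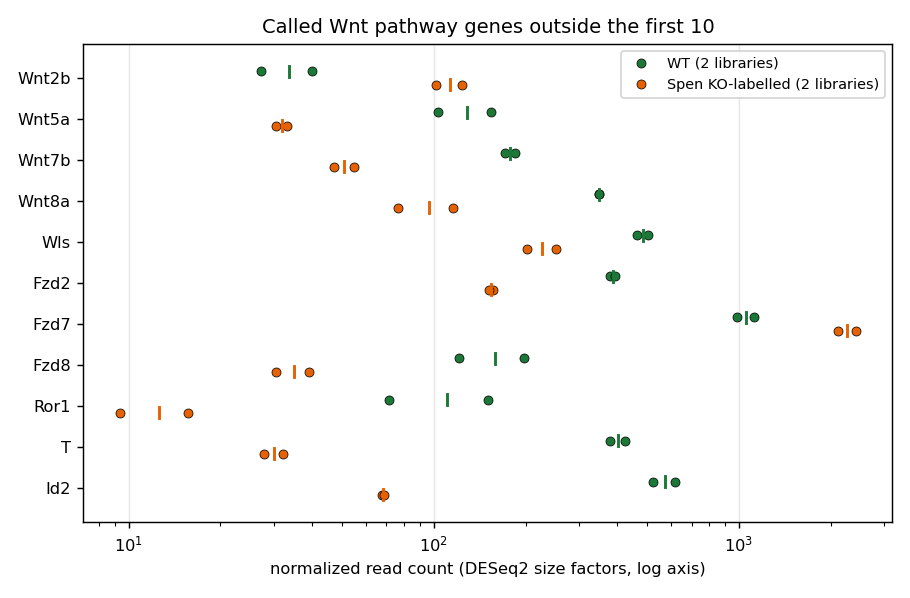
Normalised read counts, on a log axis, of the 11 further Wnt pathway genes called at these thresholds, 2-fold and adjusted p below 0.001. Points are libraries (green WT, orange *Spen* KO-labelled, 2 each) and ticks are group means. *Wnt2b* and *Fzd7* are higher in KO-labelled libraries, and the other 9 are lower, *T* and *Id2* by the largest distance together with *Ror1*.

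The destruction complex and its regulators were expressed in every library, and 5 genes were higher and 3 lower of 20 at an adjusted p under 0.05. With chromosome medians removed, only *Apc* and *Btrc* of these kept a DESeq2 adjusted p under 0.05 (0.000306 and 0.000386). *Btrc*, the ubiquitin ligase subunit that recognises phosphorylated beta-catenin, had 1550 and 1650 normalised read counts in WT and 2772 and 2696 in KO-labelled libraries (0.77 ± 0.10, adjusted p of 1.79e-14). *Apc*, a scaffold of the complex, had 3242 and 3860 against 5651 and 4818 (0.56 ± 0.10, adjusted p of 8.81e-07). *Tnks2*, a tankyrase that destabilises Axin, had 25389 and 25316 against 32224 and 34514 (0.40 ± 0.07, adjusted p of 2.98e-08). *Btrc* and *Tnks2* are on chromosome 19, and with its median removed their log2 fold changes were 0.39 and 0.01, the latter with an adjusted p of 0.922.

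*Gsk3b*, a kinase of the complex, stood at -0.23 with an adjusted p of 0.041, and at 0.01 once the median of its chromosome was removed. It did not pass with any 1 library left out (0.109 to 0.417). The same held for *Dvl1* (-0.35, adjusted p of 0.0222, and 0.063 to 0.386 with 1 library left out), which stood at -0.14 with its chromosome median removed (0.465). *Ppp2r5d* (-0.27, adjusted p of 0.00593) passed only without WT replicate 1 (0.00869), and gave 0.276, 0.0633 and 0.148 without WT replicate 2 and KO-labelled replicates 1 and 2, and -0.14 with an adjusted p of 0.244 with its chromosome median removed. The most abundant genes of the list that did not pass were *Csnk2a1* (0.17, adjusted p of 0.0879), *Csnk1d* (0.06, 0.612) and *Fbxw11* (0.05, 0.689).

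Nuclear effectors gave 7 genes higher and 2 lower of 20 at an adjusted p under 0.05. *Tle4*, a Groucho-type corepressor bound by TCF/LEF factors, had 10854 and 11295 normalised read counts in WT and 15784 and 16120 in KO-labelled libraries (0.53 ± 0.07, adjusted p of 1.21e-13). It is also on chromosome 19, and with the median removed it stood at 0.14 with an adjusted p of 0.0992. *Ctnnbip1*, an inhibitor that keeps beta-catenin from TCF/LEF factors, was lower, 927 and 885 against 559 and 528 (-0.74 ± 0.14, adjusted p of 1.16e-06), and an opposite-strand transcript shares 25.79% of its exonic bases. *Tle1* had a log2 fold change of -0.30 (adjusted p of 0.0342). Its adjusted p was 0.554 without WT replicate 2, 0.266 without KO-labelled replicate 1 and 0.179 without KO-labelled replicate 2, and with its chromosome median removed it stood at -0.09 (0.636). The coactivator genes *Bcl9* and *Bcl9l* stood at 0.63 and 0.61, with adjusted p of 0.00927 and 0.0498. Their adjusted p rose to 0.326 and 0.478 without WT replicate 1 and to 0.605 and 0.697 without KO-labelled replicate 1, and *Bcl9l* stood at 0.48 (0.16) with its chromosome median removed. *Hdac1* (-0.03, adjusted p of 0.809), *Ctbp2* (-0.11, 0.249) and *Jup* (0.09, 0.402) did not pass.

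Of 20 tested genes known as other targets of beta-catenin, 2 were called lower and 0 higher by DESeq2 and by edgeR. At an adjusted p under 0.05, and also at an unadjusted p under 0.05, 4 were higher and 7 lower, with a median of -0.24. *T* (brachyury), the mesoderm factor of the primitive streak, had 378 and 425 normalised read counts in WT and 27.9 and 32.1 in KO-labelled libraries (-3.74 ± 0.28, adjusted p of 7.73e-38), a 13.4-fold lower mean. *Id2*, an inhibitor of basic helix-loop-helix factors that BMP signals also induce, had 524 and 617 against 67.9 and 68.9 (-3.06 ± 0.22, adjusted p of 5.41e-41), an 8.34-fold lower mean. With 1 library left out the log2 fold change lay between -3.85 and -3.64 for *T* and between -3.17 and -2.93 for *Id2*. *T* is one of the mesendoderm markers whose sum was lower in KO-labelled libraries, and the part of such cells in its value was not tested.

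*Eomes*, another streak factor, had 659 and 637 normalised read counts in WT and 326 and 330 in KO-labelled libraries (-0.98 ± 0.16, adjusted p of 2.28e-08). *Bmp4* was higher, 988 and 927 against 1965 and 1786 (0.97 ± 0.11, adjusted p of 3.46e-16), and so was *Tbx3*, a factor of naive pluripotency, 8245 and 8848 against 14478 and 14984 (0.79 ± 0.07, adjusted p of 2.17e-26). *Ascl2*, a target in gut stem cells, stood at 0.85 with an adjusted p of 0.0152, which was 0.0692 to 0.221 with 1 library left out. *Myc*, the growth regulator and a widely used target, had 2860 and 2976 against 3107 and 3014 (0.07, adjusted p of 0.612). *Znrf3*, given above, and *Nkd2*, a relative of *Nkd1* (99.4 and 87.1 against 118 and 129, 0.41, adjusted p of 0.382), did not pass either. The 7 lower targets of this list were *T*, *Id2*, *Eomes*, *Apcdd1*, *Ccnd1* (-0.53, adjusted p of 2.2e-12), *Cdx2* (-1.85, 0.00357) and *Sp8* (-2.39, 0.0117), and the 4 higher were *Tbx3*, *Bmp4*, *Ascl2* and *Notum* (0.25, 0.0252). *Ccnd1*, *Cdx2*, *Sp8* and *Notum* are named here to complete the list, after their values were seen. With 1 library left out the adjusted p was 0.0515 to 0.166 for *Cdx2* and 0.0569 to 0.325 for *Notum*, and 0.225 for *Sp8* without KO-labelled replicate 2. With the median of its chromosome removed *Notum* stood at 0.08 (adjusted p of 0.586). The opposite-strand genes *4732444A12Rik* and *Oraov1* share 29.4% of the exonic bases of *Notum* and 21.33% of those of *Ccnd1*.

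Tcf7l1 is known to repress a set of self-renewal genes in mESCs, and 8 of them were examined. Of these, 0 were called by DESeq2 or edgeR, 3 were higher and 1 lower at an adjusted as well as an unadjusted p under 0.05, and the median was 0. *Tfcp2l1*, listed under its older symbol *Tcfcp2l1*, had 33850 and 33055 normalised read counts in WT and 45697 and 50152 in KO-labelled libraries (0.52 ± 0.07, adjusted p of 1.31e-12). *Nr5a2* had 3608 and 3668 against 5167 and 5245 (0.52 ± 0.08, adjusted p of 5.04e-10). *Klf2* had 1405 and 1590 against 2110 and 1756 (0.37 ± 0.12, adjusted p of 0.00894), and its adjusted p was 0.204 without WT replicate 1 and 0.316 without KO-labelled replicate 1, and with its chromosome median removed it stood at 0.26 (0.0869). *Nr0b1* was lower, 4611 and 4981 against 3473 and 3552 (-0.45 ± 0.08, adjusted p of 5.38e-07). *Nanog* (-0.06, adjusted p of 0.657), *Esrrb* (-0.02, 0.83), *Klf4* (0.01, 0.924) and *Tdgf1* (-0.01, 0.919) did not pass. *Esrrb* lies on chromosome 12, whose median was -0.32, and with this removed it stood at 0.29 with an adjusted p of 7.85e-05.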

How the data were processed

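Total RNA of 4 mESC libraries (2 WT and 2 KO-labelled) was depleted of ribosomal RNA and made into stranded, paired-end libraries. Per the labels and the submitters' processing notes, the authors used bcl2fastq, STAR and featureCounts against mm9 and deposited raw read counts for 37310 genes. Versions, the strand setting and the handling of reads with several positions are not given in the sources used here. Gene positions, exonic lengths and overlaps came from the mm9 annotation.

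DESeq2 1.42.0 in R 4.3.3 was fitted to all genes with the group as the single term, default size factors, independent filtering and Benjamini-Hochberg adjustment. FPKM was computed from the counts, library totals and exonic lengths. Calls needed a change of 2-fold or more and an adjusted p below 0.001. Alternatives were edgeR 4.0.16 (quasi-likelihood), other size factors and filters, shrunken fold changes, other thresholds, removal of chromosome medians, each library left out and a replicate block. Exonic windows of 75 bases were mapped to mm9 with minimap2 2.31. Upstream sequences came from RefSeq (GRCm38.p6).

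The genes and lists were chosen with earlier results of these data known. Named genes were *Spen*, the 10 members, the genes repressed by Tcf7l1 and, among genes with a mean of at least 50 normalised counts, all ligands and, in each list, called genes, up to 3 per direction with the largest fold at an adjusted p under 0.05 and up to 3 of the most abundant genes that did not pass. Genes outside this rule are marked where named, besides overlapping, neighbouring and marker genes and the remaining Frizzled genes.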

Additional observations from a re-analysis of the deposited data

How the results depend on the processing

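*Sp5* was called lower in each of the alternatives tried, with log2 fold changes from -5.56 to -3.06 (the latter with shrunken fold changes), and 0 members were called higher. With only 2 libraries a group, a fit without 1 library takes its spread from the other group alone. Its counts therefore cannot say whether calls rest on the library left out. Without 1 library, 137 to 185 genes were called higher and 332 to 404 lower (241 and 558 with all), fewer whichever library was left out. Members lower at an adjusted p under 0.05 numbered 1 to 3. Other pathway genes called numbered 1 to 3 higher and 4 to 8 lower. At an adjusted p under 0.05 these other genes numbered 14 to 21 higher and 14 to 17 lower. The member median was -0.188 to -0.049 in these fits. Shrunken fold changes gave 151 genes called higher and 368 lower, and 1 other pathway gene higher. A looser adjusted p of 0.05 with 2-fold gave 371 and 852. Dropping the fold minimum at an adjusted p of 0.001 gave 1499 and 1571, with 16 and 15 other pathway genes. At an adjusted p under 0.05 without a fold minimum, upper-quartile size factors gave 1 member higher (*Ctnnb1*, log2 fold change of 0.185). Removal of chromosome medians moved the member median to -0.42 and turned *Gsk3b* to 0.009 and *Esrrb* to 0.29. Where no value is named above, the cause was not tested.

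The replicate numbers did not pair the libraries: the deviations of same-numbered libraries correlated at -0.02 over 13306 genes. In a fit with a replicate block, *Sp5* stood at -4.925, *Axin2* at -0.48 with an adjusted p of 0.0294, the member median at -0.19, and 1 other pathway gene was called higher, and 192 genes were called higher and 457 lower in all. At this depth *Dkk1* and *Lgr5*, with 2 to 12 reads a library, could show only changes of several fold.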
